A study of Mus musculus with 6 samples.

Results

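Expression of 10 core cardiac transcription factors was examined in the pressure-overloaded left ventricle of mice that overexpress HINT2 and of their non-transgenic controls. The members were the rows of the gene count table whose gene name was Gata4, Gata6, Nkx2-5, Hand2, Tbx2, Tbx5, Tbx20, Mef2a, Mef2c or Srf, and they made up 10 of its 54532 rows. All 10 passed the filter on low counts, which left 14774 genes in the test.

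RNA was collected from the left ventricle of 3 HINT2-TG (TG) and 3 NTG mice 4 weeks after aortic banding (AB), which narrows the aorta so that the ventricle pumps against a raised load, and each heart gave 1 poly-A selected library. TG mice are labelled HINT2CTG-Myh6Cre: a HINT2 sequence under the ubiquitous CAG promoter is combined with Cre driven by Myh6, a gene of cardiomyocytes, and tamoxifen was given to them at 5 mg/kg per day for 7 days. NTG mice are labelled C57BL/6J. All mice were male and 8 to 10 weeks old at surgery, and all 6 were banded. Whether NTG mice received tamoxifen, and whether they were littermates, is not given in the sources used here, so HINT2, Cre and tamoxifen cannot be told apart in this comparison. Sham-operated mice were not analysed here, so the values show differences between banded hearts and not the response to banding.

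On GRCm38 the GATA factors lie at chr14:63198922-63271692 on the minus strand (Gata4, ENSMUSG00000021944) and at chr18:11052508-11085635 on the plus strand (Gata6, ENSMUSG00000005836). Nkx2-5 (ENSMUSG00000015579) lies at chr17:26838664-26841565 on the minus strand, and Hand2 (ENSMUSG00000038193) at chr8:57320983-57324633 on the plus strand. The T-box genes are Tbx2 (ENSMUSG00000000093, chr11:85832551-85841948, plus strand), Tbx5 (ENSMUSG00000018263, chr5:119832668-119885219, plus strand) and Tbx20 (ENSMUSG00000031965, chr9:24718138-24774303, minus strand). The MADS box genes are Mef2a (ENSMUSG00000030557, chr7:67231163-67372858, minus strand), Mef2c (ENSMUSG00000005583, chr13:83504034-83667080, plus strand) and Srf (ENSMUSG00000015605, chr17:46548329-46556175, minus strand). The 10 genes are therefore on 9 chromosomes, and only Nkx2-5 and Srf share one.

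These factors bind short DNA sequences in the control regions of heart genes, often side by side, and most of them switch on sarcomere, ion channel and natriuretic peptide genes, while Tbx2 represses such genes. Gata4 and Gata6 are zinc finger proteins, Nkx2-5 is a homeodomain protein, Hand2 is a basic helix-loop-helix protein, Tbx2, Tbx5 and Tbx20 share the T-box, and Mef2a, Mef2c and Srf share the MADS box. They build the heart in the embryo and stay active in the adult, where GATA4, MEF2 and SRF are known to pass on the signals of a raised load.

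The start regions of Srf, Mef2a and Hand2 are shown as examples of genes higher in TG at an unadjusted p under 0.05 whose windows hold a CArG box, a MEF2 site or a GATA site. RefSeq (GRCm38.p6) windows of 300 bases, from 250 before the transcription start to 50 after its first position, were found for 6 of the 10 members, namely Nkx2-5, Hand2, Tbx20, Mef2a, Mef2c and Srf. Each sequence runs 5′ to 3′ on the gene's own strand. Capitals mark CArG boxes, the SRF binding motif, in Srf, a MEF2 site in Mef2a, and GATA sites in Hand2.
Srf, chr17:46556113-46556412, minus strand: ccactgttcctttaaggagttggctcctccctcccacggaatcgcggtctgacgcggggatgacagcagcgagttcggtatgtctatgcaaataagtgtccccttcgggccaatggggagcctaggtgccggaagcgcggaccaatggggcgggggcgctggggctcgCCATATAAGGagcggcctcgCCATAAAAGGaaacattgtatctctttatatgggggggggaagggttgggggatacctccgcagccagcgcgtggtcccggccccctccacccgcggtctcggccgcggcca
Mef2a, chr7:67372809-67373108, minus strand: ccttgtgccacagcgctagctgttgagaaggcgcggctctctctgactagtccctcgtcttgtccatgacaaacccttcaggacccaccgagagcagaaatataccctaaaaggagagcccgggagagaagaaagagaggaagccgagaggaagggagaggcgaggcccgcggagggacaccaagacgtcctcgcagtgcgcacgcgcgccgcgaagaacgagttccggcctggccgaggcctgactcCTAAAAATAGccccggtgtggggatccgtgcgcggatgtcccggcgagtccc
Hand2, chr8:57320733-57321032, plus strand: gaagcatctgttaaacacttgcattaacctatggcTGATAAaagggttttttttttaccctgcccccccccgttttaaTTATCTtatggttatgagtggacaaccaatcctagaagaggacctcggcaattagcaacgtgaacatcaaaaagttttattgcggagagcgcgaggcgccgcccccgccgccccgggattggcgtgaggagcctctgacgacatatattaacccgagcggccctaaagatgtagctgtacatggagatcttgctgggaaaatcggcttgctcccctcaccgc

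The Srf window held 2 CArG boxes, CCATATAAGG at -82 to -73 and CCATAAAAGG at -62 to -53 from the transcription start, and 1.63% of the 32851 windows of all genes held at least 1. The Mef2a window held 1 MEF2 site, CTAAAAATAG, from -2 to 7, and such a site was in 0.557% of all windows. In the Hand2 window there were 2 GATA sites (GATAA or GATAG after an A or a T), which 29.8% of all windows share, and 2 E-boxes (CANNTG), the motif of Hand2's own protein class, which 72.3% share. Both strands were searched, and no match of one motif overlapped a match of another in these 3 windows. The NKX2-5 motif TNAAGTG and the T-box half-site AGGTGT were in 11.5% and 13.7% of all windows and in none of these 3. The 3 windows were chosen because they hold such matches, so their matches do not describe the members as a set. The window of Nkx2-5, also higher in TG at the unadjusted threshold, held no CArG box, MEF2 site or GATA site. It held no NKX2-5 motif or T-box half-site either. These matches are descriptions of letters, and binding was not measured.

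Total counts on genes ranged from 14863568 to 17581220 per library, and genes of the mitochondrial genome took 19.2%, 13.4% and 14.3% of them in NTG 1, 2 and 3 and 21.5%, 15.95% and 20.3% in TG 1, 2 and 3. Their part in the members' values was not tested. Cardiomyocyte identity was clear in every library, with the ventricular light chain Myl2 between 2718 and 5638 CPM, which are counts scaled with TMM factors to a common library size. The Hint2 row held 793, 828 and 859 counts in TG 1, 2 and 3 and 545 and 559 in NTG 2 and 3, but 12 in NTG 1. Whether reads of the transgene fall on the mouse Hint2 row is not stated, so these counts do not check the transgene itself. Atrial genes also varied between hearts of one group, Myl7 being at 19.5, 0.159 and 0 CPM in NTG and at 1.59, 7.67 and 64.4 CPM in TG. By its Hint2 count NTG 1 stands apart from the other NTG hearts, and its label may be wrong, which the sources used here do not settle. On the first principal component of log2 CPM (52.3% of the variance), NTG 1 was at -5.08, next to TG 2 at -10.7, while NTG 2 and 3 were at 55.7 and 29.3 and TG 1 and 3 at -32.7 and -36.5. A chi-square comparison of raw counts, averaged per gene, put NTG 1 at 17.9 to 28.3 from the TG hearts, and at 71.4 and 33.6 from NTG 2 and 3. Every NTG mean and every fold change over 6 libraries includes it. Over the 6 libraries Hint2 had a log2 fold change of 1.33 (SE 0.86, adjusted p = 0.433 in edgeR), and without NTG 1 it had 0.77 with an adjusted p of 0.021, in a fit that called 2.67% of all genes higher. Calls that appear without NTG 1 are given beside each gene, and no gene on the lists used here was called when any other single library was left out.

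Between TG and NTG, 0 of the 10 members passed edgeR's quasi-likelihood test (threshold: adjusted p under 0.05, with a log2 difference beyond 0.5 either way), beside 0.0% of all genes tested in either direction. DESeq2, which called 1.49% of genes higher and 2.32% lower in TG, also called 0 members, as did limma-voom. At an unadjusted p under 0.05 in edgeR, 6 members were higher in TG (Hand2, Tbx2, Nkx2-5, Srf, Mef2a and Gata6) and 0 were lower, against 8.83% of all genes higher and 9.76% lower. Their unadjusted p values ran from 0.0263 for Tbx2 to 0.0465 for Hand2. DESeq2 placed 5 of these 6 at an unadjusted p under 0.05, without Gata6, against 8.97% of all genes, and limma-voom placed the same 6, against 9.45%. The other 4 members, Tbx5, Gata4, Tbx20 and Mef2c, had log2 fold changes between -0.058 and 0.088.

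**Figure D1:**
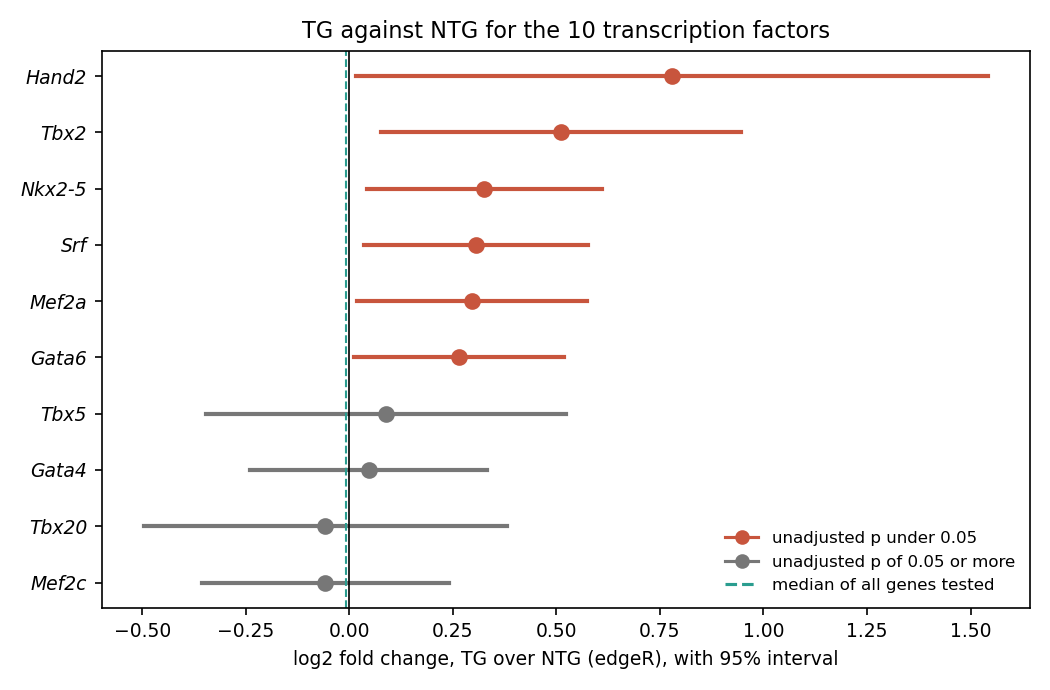
Log2 fold change of TG over NTG (x axis) for each of the 10 transcription factors (y axis), with points for the edgeR estimate, bars for its 95% interval, and a dashed line at the median of all genes tested. The intervals of Hand2, Tbx2, Nkx2-5, Srf, Mef2a and Gata6 lie above 0, and those of the other 4 cross it.

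The median log2 fold change of the 10 members was 0.28, with 8 of them above 0, while the median of all 14774 genes was -0.0081, with 48.7% above 0. Among the 947 tested rows that the file itself annotates with a transcription factor family, the median was -0.011, 6.65% were higher at an unadjusted p under 0.05 and 5.91% were lower. By log2 fold change, Hand2 stood at place 21 and Tbx2 at place 58 of these 947 factors, whereas Tbx20 and Mef2c stood at places 548 and 549. The members were chosen with earlier results of these data known, so their median is a description.

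The count of 6 fell when any 1 library was left out, in fits with fewer hearts where the share of all genes also moved. The count was 0 without TG 1 and 0 without NTG 2 (against 4.98% and 5.08% of all genes). It was 2 without TG 2, TG 3 or NTG 3 (against 9.08%, 5.35% and 5.15%). Without NTG 1 it was 5, against 13.7%, and scaling by library size alone left 1 (Hand2), against 6.19%. All 6 of these genes kept a fold change above 0 in each of the 16 alternatives.

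Hand2 had the largest difference among the members. Its protein pairs with other helix-loop-helix proteins and is needed to form the right ventricle. Hand2 was at 50.2, 20.02 and 29.9 CPM in NTG 1, 2 and 3, from 735, 377 and 517 counts, and at 66.1, 47.1 and 58.1 CPM in TG 1, 2 and 3, from 916, 829 and 941 counts. NTG 2 and NTG 3 lay below every TG heart, but NTG 1 lay above TG 2, so the groups overlapped. The means were 57.1 ± 9.51 CPM in TG and 33.4 ± 15.4 CPM in NTG (SD, n = 3 each). The log2 fold change was 0.78 (SE 0.32, 1.72-fold, 95% interval 1.01 to 2.91) by edgeR's quasi-likelihood test, with adjusted p = 0.261. It was above that of 96.2% of the genes tested.

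Spread within NTG was wide for Hand2, with a coefficient of variation of 46.1% where counting error alone would give 3.73%. Without NTG 1, the log2 fold change was 1.19 and edgeR's adjusted p was 0.032, so Hand2 was then called, along with 2.67% of all genes higher in TG, while 2.85% were then called lower. DESeq2 without NTG 1, an alternative chosen after the values were seen, also called it (log2 fold change 1.199, adjusted p = 2.85e-05), where 5.84% of all genes were called higher in TG. Without NTG 2, the value was 0.51. In TG 1, where Hand2 was highest, the atrial genes Myl7 and Sln were at 1.59 and 0.288 CPM, and in NTG 1, the highest NTG heart, they were at 19.5 and 8.33 CPM. TG 3, the library with the highest Myl7 and Sln, lay between TG 1 and TG 2 for Hand2. The sum of all 6 atrial markers, most of it Nppa, was 192 CPM in TG 1 and 833 CPM in NTG 1. The study also uses Nppa as a marker of hypertrophy, so this sum does not measure atrial tissue alone. Their part in the Hand2 values was not tested.

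Hand2 shares exons with the antisense transcript AV026068, which covers 461 of its 2351 exonic bases (19.6%). The labels describe no step that marks the strand, and the strand setting of the counting is not stated, so reads from the shared bases cannot be told apart. AV026068 was at 37.6, 26.7 and 27.2 CPM in NTG and at 44.6, 29.8 and 38.6 CPM in TG, with a log2 difference of 0.30 between the groups (adjusted p = 0.398 in edgeR). Its lowest TG heart and highest TG heart were also those of Hand2.

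**Figure D2:**
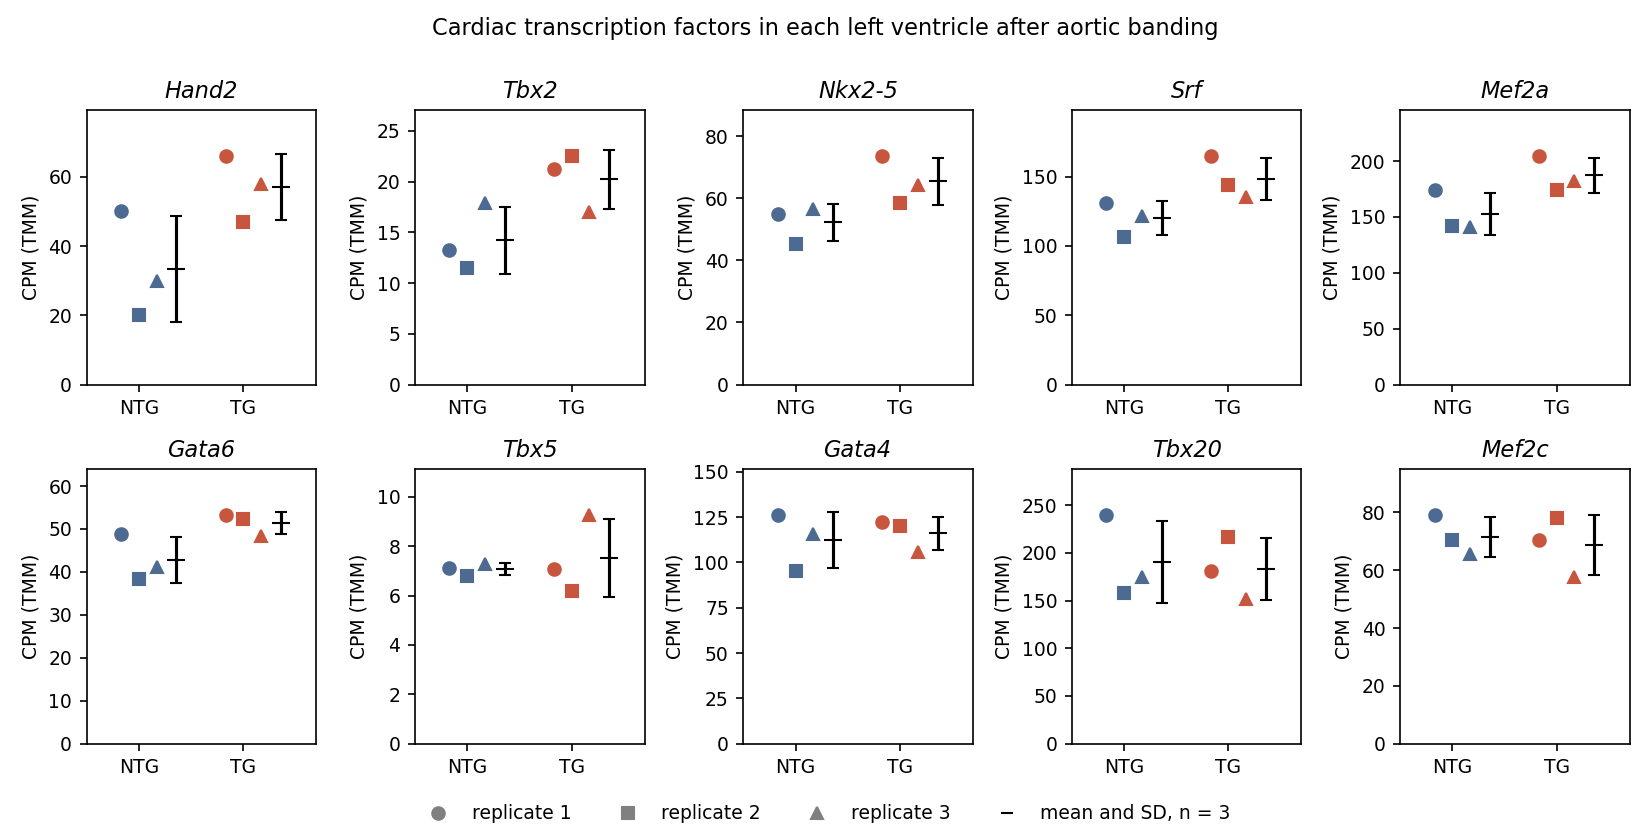
CPM scaled by TMM (y axes, each from 0) in every library of NTG (blue) and TG (red) for each of the 10 transcription factors, with symbols for replicates 1 to 3 and a bar for the mean and SD of 3 hearts. TG lies wholly above NTG for Nkx2-5, Srf and Mef2a, and the groups overlap for the other 7.

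Nkx2-5, one of the first genes to mark heart cells in the embryo and a partner of GATA4 and TBX5, was at 54.9, 45.3 and 56.5 CPM in NTG and at 73.6, 58.5 and 64.3 CPM in TG. Every TG heart was above every NTG heart, although TG 2 was close to NTG 3. The mean was 65.5 ± 7.60 CPM in TG and 52.2 ± 6.04 CPM in NTG (SD, n = 3 each). The log2 fold change was 0.33 (SE 0.12, 1.25-fold, 95% interval 1.03 to 1.53), with adjusted p = 0.227 by edgeR, and 0.36 with an adjusted p of 0.141 without NTG 1. Without NTG 2 it was 0.23, with edgeR's adjusted p at 0.515, and without TG 1 it was also 0.23. A two-sided exact permutation test over the hearts gave p = 0.1, the smallest that 3 against 3 allows. Of all genes tested, 11.2% had every TG heart above every NTG heart, and 3 of the 10 members did, Nkx2-5, Srf and Mef2a.

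Srf, which drives actin and smooth muscle genes through CArG boxes, was at 131, 107 and 122 CPM in NTG and at 165, 144 and 136 CPM in TG. The groups did not overlap, although TG 3 was close to NTG 1. Means were 148 ± 15.02 CPM in TG and 119.9 ± 12.3 CPM in NTG (SD, n = 3 each). Its log2 fold change of 0.31 (SE 0.12, 1.24-fold, 95% interval 1.03 to 1.49) had adjusted p = 0.230 by edgeR, and without NTG 1 it was 0.37 with an adjusted p of 0.103. It was 0.23 without NTG 2 (adjusted p = 0.515 in edgeR) and 0.22 without TG 1.

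Mef2a, the MEF2 gene whose loss damages cardiac mitochondria in mice, was at 174.1, 142 and 141 CPM in NTG and at 204, 174.3 and 182 CPM in TG. The groups did not overlap, but TG 2 and NTG 1 were nearly equal. Group means were 187 ± 15.6 CPM in TG and 152 ± 18.8 CPM in NTG (SD, n = 3 each). The log2 fold change was 0.30 (SE 0.12, 1.23-fold, 95% interval 1.01 to 1.49), with adjusted p = 0.246 by edgeR. Without NTG 1 it was 0.40 with an adjusted p of 0.0716 in edgeR, against 0.25 and 0.522 without NTG 2, and without TG 1 the fold change was 0.23. The antisense gene Lysmd4 shares 302 of its 14681 exonic bases (2.06%).

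Mef2c, the paralog of Mef2a that is needed in the developing heart, was at 79.1, 70.3 and 65.4 CPM in NTG and at 70.6, 77.9 and 57.7 CPM in TG. The hearts of both groups were interleaved, with NTG 1 highest and TG 3 lowest. Its log2 fold change was -0.058 (SE 0.13, 0.960-fold, 95% interval 0.781 to 1.18), with adjusted p = 0.830 by edgeR, and it turned to 0.016 without NTG 1 and to 0.053 without TG 3.

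Mef2d, a further MEF2 gene that is not among the 10, was at 159, 141 and 157 CPM in NTG and at 179, 167 and 173 CPM in TG. Its hearts did not overlap between the groups, and its log2 fold change was 0.18 with adjusted p = 0.332 by edgeR.

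Gata6, a zinc finger factor of heart muscle, vessels and gut, was at 48.8, 38.2 and 41.2 CPM in NTG and at 53.2, 52.3 and 48.5 CPM in TG. NTG 1 lay just above TG 3, and the other NTG hearts lay below all TG hearts. The means were 51.3 ± 2.53 CPM in TG and 42.8 ± 5.45 CPM in NTG (SD, n = 3 each). The log2 fold change was 0.26 (SE 0.11, 1.201-fold, 95% interval 1.01 to 1.43), with adjusted p = 0.255 by edgeR and 0.308 by DESeq2. Without NTG 1 the fold change was 0.37 and the edgeR adjusted p was 0.0661, and without NTG 2 they were 0.19 and 0.567. The antisense transcript 1010001N08Rik shares 93 of the 6508 exonic bases that GENCODE M21 gives Gata6 (1.43%).

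Gata4, the best known GATA factor of heart muscle growth, was at 126, 95.3 and 116 CPM in NTG and at 122, 120.1 and 106 CPM in TG. All TG hearts lay inside the NTG range. Its log2 fold change was 0.046 (SE 0.12, 1.03-fold, 95% interval 0.847 to 1.26), with adjusted p = 0.862 by edgeR, and it turned to -0.032 when scaled by library size alone and to -0.061 without NTG 2.

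Tbx2, a T-box repressor that keeps chamber genes off in the canal between atria and ventricles, was at 13.2, 11.5 and 17.9 CPM in NTG and at 21.2, 22.5 and 16.98 CPM in TG. NTG 3 lay above TG 3, and every other NTG heart lay below every TG heart. The means were 20.2 ± 2.89 CPM in TG and 14.2 ± 3.31 CPM in NTG (SD, n = 3 each). The log2 fold change was 0.51 (SE 0.19, 1.43-fold, 95% interval 1.05 to 1.93), with adjusted p = 0.223 by edgeR. It was 0.46 without NTG 1, 0.37 without NTG 2 and 0.71 without NTG 3.

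Tbx5, an activator that is strongest in the atria and the left side of the heart and is needed for conduction, was at 7.10, 6.80 and 7.29 CPM in NTG and 7.07, 6.20 and 9.26 CPM in TG. Only TG 3 stood apart from the rest, and it was also the library with the highest Myl7, Myl4 and Sln, at 64.4, 77.8 and 24.8 CPM. NTG 1, the next highest library for Myl7 and Sln, did not stand apart for Tbx5, at 7.10 CPM. Nppa, on the same list of atrial markers, was at 268 CPM there, and the sum of the list was 464 CPM, below the 833 CPM or more of every NTG heart. Since Nppa is also a hypertrophy marker in the study, this sum does not measure atrial tissue alone. Their part in the Tbx5 value was not tested. Its log2 fold change was 0.088 (SE 0.19, 1.06-fold, 95% interval 0.786 to 1.44), with adjusted p = 0.822 by edgeR, and it was -0.093 without TG 3. Counts of 98 to 150 per library set a counting error of 9.16%, above the NTG coefficient of variation of 3.51% and below that of TG, 21.02%.

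Tbx20, a T-box factor that adult cardiomyocytes need to keep contracting, was at 239.6, 158 and 175 CPM in NTG and at 181, 217 and 152 CPM in TG. Its highest heart was in NTG and its lowest in TG, with the others interleaved. Here the log2 fold change was -0.058 (SE 0.19, 0.961-fold, 95% interval 0.709 to 1.302), with adjusted p = 0.890 by edgeR, and it was 0.14 without NTG 1. Counting error was 1.81%, so nearly all of the spread of 22.7% in NTG and 17.9% in TG lay between hearts or their preparation.

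**Figure D3:**
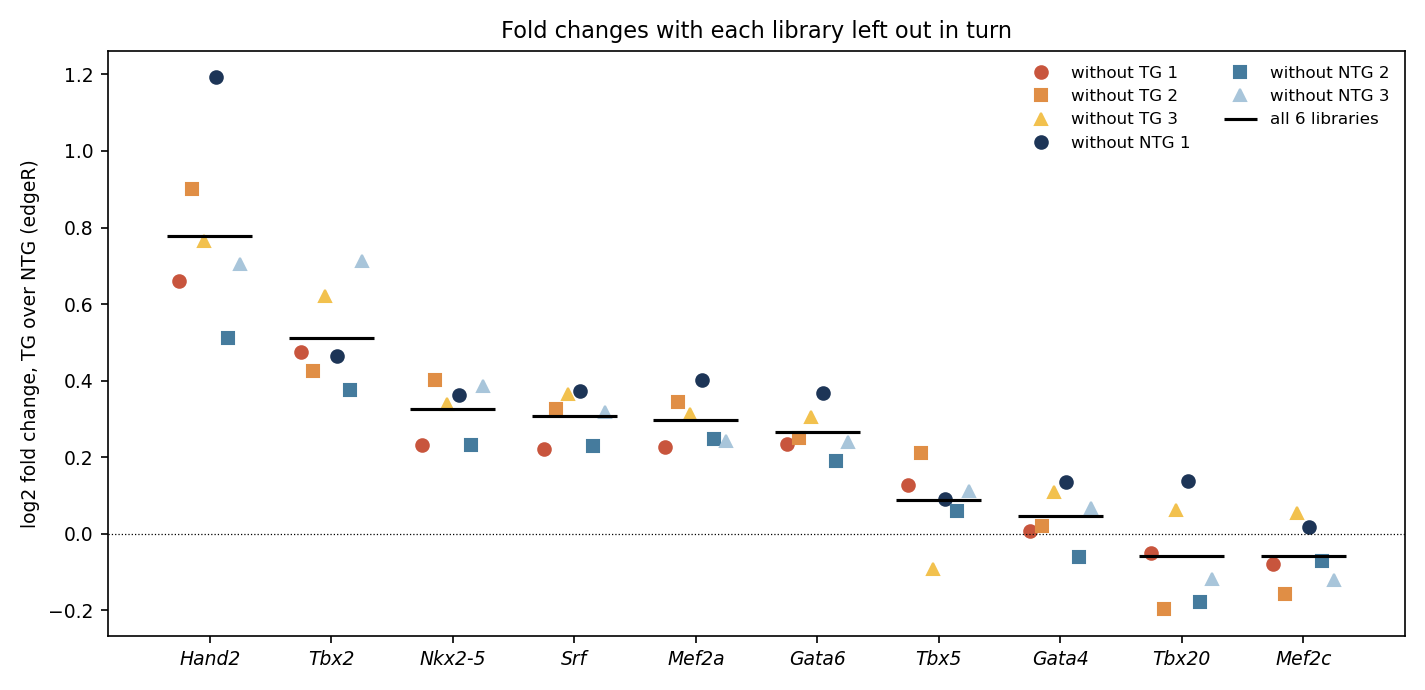
Log2 fold change of TG over NTG by edgeR (y axis) for each of the 10 transcription factors (x axis), with a black line for all 6 libraries and a symbol for each fit with 1 library left out. Hand2 ranges from 0.51 without NTG 2 to 1.19 without NTG 1, and Tbx5, Gata4, Tbx20 and Mef2c cross 0.

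Ratios of counts between members of one family do not depend on how the libraries are scaled, and 7 such ratios were compared. Mef2a to Mef2c was 2.20, 2.02 and 2.15 in NTG and 2.90, 2.24 and 3.16 in TG. Gata4 to Gata6 was 2.58, 2.49 and 2.80 in NTG and 2.29, 2.30 and 2.18 in TG. Tbx20 to Tbx2 was 18.1, 13.7 and 9.78 in NTG and 8.53, 9.63 and 8.93 in TG. In all 3 of these ratios the groups did not overlap, with Mef2a to Mef2c higher in TG and the other two ratios lower.

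The log2 ratio differed between TG and NTG by 0.37 for Mef2a to Mef2c, by -0.22 for Gata4 to Gata6 and by -0.58 for Tbx20 to Tbx2. Each had p = 0.1 in a two-sided exact permutation test, the smallest the design allows, and adjusted p = 0.233 over the 7 ratios. Srf to Mef2c differed by 0.37, with exact permutation adjusted p = 0.35, and TG 2 fell below NTG 3. Tbx2 to Tbx5 differed by 0.46 (exact permutation p = 0.3, adjusted p = 0.42). Mef2a to Srf differed by -0.0067 and Tbx20 to Tbx5 by -0.12, both with an exact permutation p of 1. The nearly equal Mef2a to Srf ratio, between 1.16 and 1.35 in all 6 hearts, was the narrowest of the 7.

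**Figure D4:**
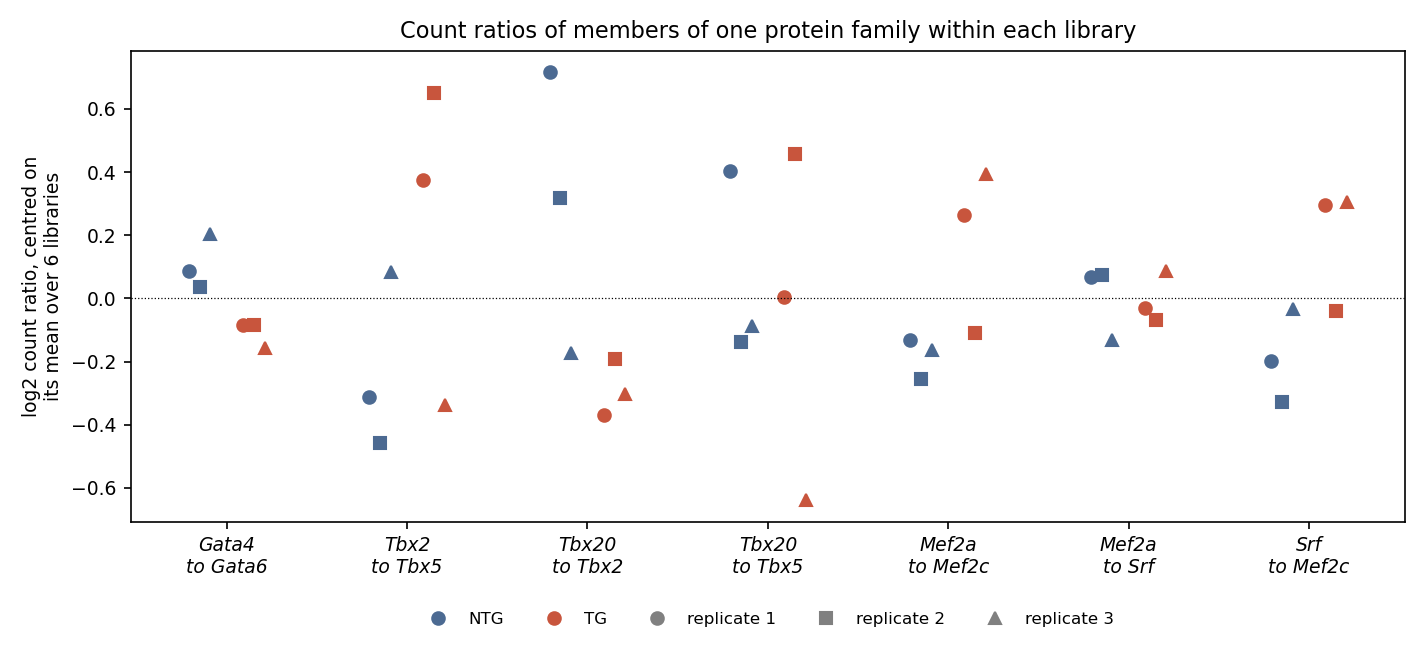
Log2 ratio of counts of 2 members of a family, centred on its mean over 6 libraries (y axis), for 7 pairs (x axis), with NTG in blue, TG in red and a symbol for each replicate number. NTG and TG do not overlap for Gata4 to Gata6, Tbx20 to Tbx2 and Mef2a to Mef2c, and they overlap for the other 4 pairs.

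Levels of different genes were compared only per length, as CPM per kilobase of gene length averaged over the 6 libraries. Srf was highest at 46.3 CPM per kilobase, ahead of Nkx2-5 at 38.6, Gata4 at 29.2, Hand2 at 19.2, Tbx20 at 15.6, Mef2a at 11.6, Gata6 at 8.42, Tbx2 at 4.75, Mef2c at 4.46 and Tbx5 at 1.56 CPM per kilobase. The ranges over 6 libraries did not overlap between Mef2a and Gata6 or between Mef2c and Tbx5. Between Gata6 and Tbx2 the outcome depended on the length used for Gata6. For the other neighbours the ranges overlapped, although within each single library Srf exceeded Nkx2-5, Nkx2-5 exceeded Gata4, Gata4 exceeded Hand2 and Tbx20 exceeded Mef2a in 6 of 6 libraries. Hand2 exceeded Tbx20, and Tbx2 exceeded Mef2c, in 4 of 6 libraries. Both orders turned between the group means. In NTG, Hand2 was at 14.2 and Tbx20 at 15.9 CPM per kilobase, and Tbx2 at 3.92 and Mef2c at 4.56. In TG, they were at 24.3 and 15.3, and at 5.58 and 4.37. Gene length was taken as the file gives it, from 1525 bases for Nkx2-5 to 15715 for Mef2c. For Gata6 the file gives 5590 bases, with which its range lay above that of Tbx2, which reached 6.21 CPM per kilobase. With the 6508 exonic bases of GENCODE M21, a length tried after the values were seen, Gata6 ran from 5.88 to 8.18 CPM per kilobase and overlapped Tbx2.

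**Figure D5:**
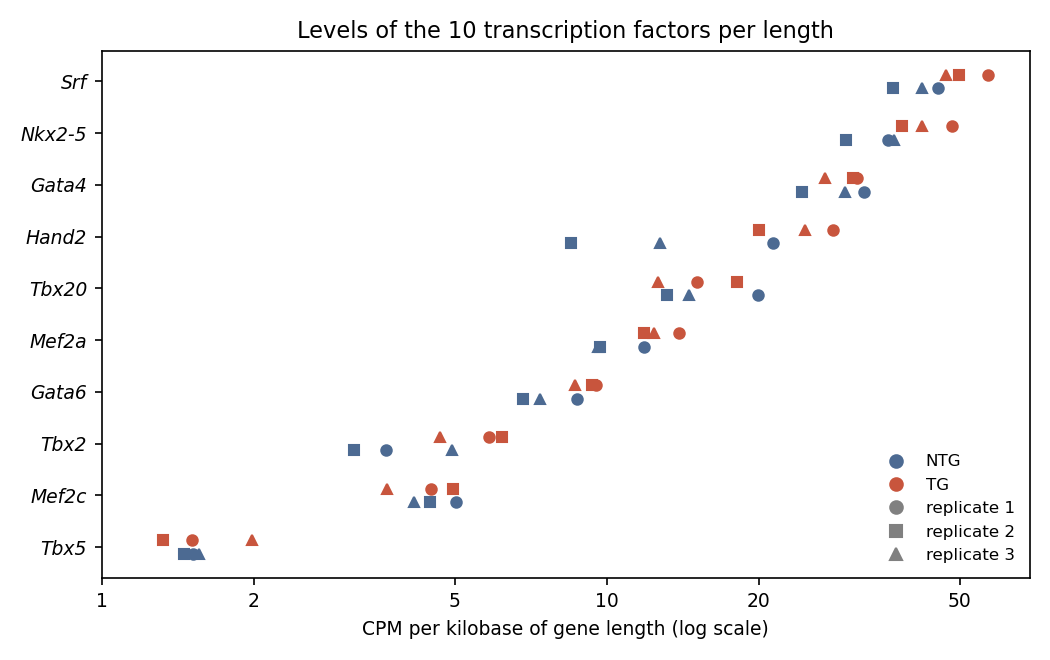
CPM per kilobase of gene length (x axis, log scale) of the 10 transcription factors (y axis, in order of their mean over 6 libraries), with NTG in blue, TG in red and a symbol for each replicate number. Mean levels run from 46.3 for Srf down to 1.56 for Tbx5.

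Profiles of the members over the hearts were compared in pairs. Over the 6 libraries, centred log2 CPM differed by a root mean square of 0.068 between Gata6 and Srf, 0.075 between Gata6 and Mef2a and 0.081 between Nkx2-5 and Srf, the closest of 45 pairs. The farthest pair, Hand2 and Mef2c, differed by 0.615. These values include the difference between the groups and depend on how widely each gene varies. Pairs of other genes were not measured for comparison, so shared variation particular to the members was not tested. NTG 2 was the lowest of all libraries for 6 members and TG 1 the highest for 5, and the mean deviation of the 10 members was 0.061, -0.34 and -0.11 in NTG 1, 2 and 3 and 0.22, 0.12 and 0.052 in TG 1, 2 and 3. NTG 1 was the highest NTG heart for 7 of the 10 members.

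Among all genes tested, those with the profile nearest to Hand2 over the 6 libraries were Fam78a and Fam110b, at root mean square differences of 0.069 and 0.071 on the log2 scale, where the SD of Hand2 itself was 0.65. Fam78a was at 15.2, 5.52 and 8.33 CPM in NTG and at 18.0, 13.8 and 15.1 CPM in TG, with NTG 1 again at the level of TG. Nearest to Tbx2 were Dclk2 and Mrgprf, at 0.046 and 0.098. For Tbx20 they were Rnf24 and Ccdc134, at 0.052 and 0.067.

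Markers of 9 cell types were examined beside the members, and edgeR called 0 of them over the 6 libraries. DESeq2 called the fibroblast markers Col1a1, Col1a2, Dcn and Postn lower (adjusted p from 0.00882 to 0.030), the erythroid markers Hba-a1, Hbb-bs, Hbb-bt and Alas2 lower, and Stard10, Tbx3, Myh11 and Cnn1 higher. The summed level of 8 cardiomyocyte markers was 32638, 20475 and 27619 CPM in NTG 1, 2 and 3 and 38313, 31808 and 36817 CPM in TG. NTG 1 lay above TG 2 in this sum, so the groups overlapped. Of their log2 fold changes 7 of 8 were above 0, with a median of 0.31. At an unadjusted p under 0.05, 1 of 8 (Myl2) was higher, against 8.83% of all genes. The count of 1 became 4 without NTG 1 (against 13.7% of all genes) and 0 without NTG 3, TG 1 or TG 3 (against 5.15%, 4.98% and 5.35%). NTG 2 was the lowest library for the cardiomyocyte sum and for 6 members alike. Of the 8 fibroblast markers, 6 were lower in TG at an unadjusted p under 0.05 (9.76% of all genes were), or 5 to 7 with 1 library left out, and their sum ranged from 4709 to 10852 CPM in NTG and from 2317 to 4017 CPM in TG. Macrophage markers were lower at that threshold for 3 of 8 genes, with sums of 953 to 1757 CPM in NTG and 700.2 to 1008 CPM in TG, and their count was 0 without TG 1 and 1 without TG 2. Without NTG 1, where 2.67% of all genes were called higher and 2.85% lower, edgeR called Pln higher among the cardiomyocyte markers (log2 fold change 0.86), and Col3a1 of fibroblasts (-1.74) and Csf1r and Mrc1 of macrophages (-0.77 and -1.02) lower. In these bulk libraries, fewer cells of a type and less RNA per cell cannot be told apart, and the part of cell makeup in the members' values was not tested.

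At an unadjusted p under 0.05, 8.83% of all genes were higher in TG and 9.76% were lower. Of 8 endothelial markers, 2 were higher at that threshold. They were 1 without NTG 2, TG 1 or TG 2 (against 5.08%, 4.98% and 9.08% of all genes) and 3 without TG 3 (against 5.35%). Their sums were 1677 to 1923 CPM in NTG and 1747 to 1988 CPM in TG. Of 8 smooth muscle and pericyte markers, 3 were higher, with sums of 1247 to 1592 CPM in NTG and 1328 to 1619 CPM in TG. The median log2 fold changes were 0.11 for endothelial and 0.0082 for smooth muscle and pericyte markers, and both sums overlapped between the groups. All 5 erythroid markers were lower in TG at that threshold (9.76% of all genes were), from sums of 1310 to 2245 CPM in NTG to sums of 762 to 908 CPM in TG. Without NTG 1 edgeR called all 5 lower by adjusted p and fold change, as it did 2.85% of all genes. Also lower at the unadjusted threshold were 3 of 3 neutrophil markers tested, which reached 207 CPM in NTG 2 and 3.70 to 26.3 CPM elsewhere. Without NTG 2, TG 1 or TG 2, 0 of them were. Of 5 atrial markers tested, 1 was higher (Stard10). The sum, dominated by Nppa, which the study also uses as a hypertrophy marker, was 833 to 1409 CPM in NTG and 192 to 910 CPM in TG.

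Proteins that bind these factors were examined as a list of 25 cofactors, of which all were tested and 0 were called by edgeR. At an unadjusted p under 0.05, 4 were higher in TG (16%) and 1 was lower (4.0%), against 8.83% and 9.76% of all genes, and the median log2 fold change was 0.086. Without NTG 1, edgeR called 3 of them higher, Hopx, Zfpm1 and Myocd, in a fit that called 2.67% of all genes higher. With 1 library left out, 2 to 6 were higher and 0 to 3 lower at the unadjusted threshold, from the lowest count without NTG 2 to the highest without NTG 1. Of all genes, 5.08% were higher at that threshold without NTG 2 and 13.7% without NTG 1. Zfpm1, which encodes the GATA partner FOG1, was at 38.1, 29.3 and 33.0 CPM in NTG and at 52.1, 42.5 and 45.7 CPM in TG, with no overlap (log2 fold change 0.48, adjusted p = 0.196 in edgeR, and 0.58 with adjusted p = 0.039 without NTG 1). Hopx, a homeodomain protein without DNA binding that restrains SRF, was at 56.3, 20.8 and 21.5 CPM in NTG and at 110.6, 60.0 and 101.4 CPM in TG. Its groups did not overlap either, and NTG 1 was again nearest to TG (log2 fold change 1.47, adjusted p = 0.205 in edgeR and 0.00811 in DESeq2). Without NTG 1 the edgeR values were 2.10 and an adjusted p of 0.026.

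Hdac5, a deacetylase that holds MEF2 in check, had a log2 fold change of 0.35 (adjusted p = 0.196 in edgeR). Lmcd1, a LIM protein that lowers DNA binding of GATA6, was lower in TG at 55.5, 59.1 and 41.2 CPM against 62.5, 88.1 and 69.7 CPM in NTG (log2 fold change -0.50, adjusted p = 0.215 in edgeR). The fourth higher cofactor was Myocd, the SRF coactivator myocardin, named after its values were seen, with a mean of 45.1 CPM in TG and 31.1 CPM in NTG, and without NTG 1 its log2 fold change was 0.78 (adjusted p = 0.047 in edgeR).

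Of 24 other heart developmental factors, 19 were tested, with 2 higher (10.5%) and 1 lower (5.26%) in TG at an unadjusted p under 0.05, near the 8.83% and 9.76% of all genes, 0 called by edgeR and a median of -0.018. With 1 library left out the counts were 1 to 3 higher and 0 to 2 lower, with 3 and 2 without TG 2, where 9.08% of all genes were higher. Tbx3, a T-box repressor closely related to Tbx2 and a factor of the conduction system, was at 15.8, 8.82 and 13.8 CPM in NTG and at 47.0, 25.8 and 31.3 CPM in TG. No TG heart overlapped NTG, and the log2 fold change was 1.44 (SE 0.29), with adjusted p = 0.196 in edgeR and adjusted p = 2.74e-04 in DESeq2, which called it. Without NTG 1 the edgeR values for Tbx3 were 1.61 and an adjusted p of 0.0513. Hey1 was higher and Hey2 lower, with log2 fold changes of 0.68 and -0.59 and adjusted p values of 0.225 and 0.213 in edgeR. Both are Notch-responsive repressors. Foxp1 followed at -0.40, with an adjusted p of 0.291 in edgeR, and without NTG 1 it was called lower at -0.59 with an adjusted p of 0.031. Hand1 and Isl1 had no counts in any library.

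In the T-box family as the file annotates it, 9 genes were tested, and Tbx2 and Tbx3 were the ones at an unadjusted p under 0.05, beside 8.83% of all genes higher at that threshold. Tbx18 was below NTG in every TG heart (log2 fold change -0.34, adjusted p = 0.319 in edgeR), as were 12.3% of all genes. In the family that holds SRF and MEF2, 5 genes were tested, with Srf, Mef2a and Mef2d each above NTG in every TG heart, as were 11.2% of all genes. In the zinc finger GATA family, 10 were tested, with Gata6 and Gatad1 higher at an unadjusted p under 0.05. These counts include the members themselves.

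Known target genes of these factors in cardiomyocytes were listed as 30 genes, and all were tested, with 4 higher (13.3%) and 3 lower (10%) in TG at an unadjusted p under 0.05, against 8.83% and 9.76% of all genes, and 0 called by edgeR. The median log2 fold change was 0.18. With 1 library left out these counts moved, as did the share of all genes that was higher, given here in brackets. They were 9 higher and 4 lower without NTG 1 (13.7%) and 4 and 4 without TG 2 (9.08%). They were 2 and 0 without NTG 2 (5.08%), 1 and 0 without NTG 3 (5.15%) or TG 3 (5.35%), and 1 and 1 without TG 1 (4.98%). Kcnh2, a potassium channel gene, was at 25.1, 12.6 and 15.7 CPM in NTG and at 36.9, 28.3 and 36.6 CPM in TG, without overlap (log2 fold change 0.93, adjusted p = 0.196 in edgeR and 0.020 in DESeq2). Without NTG 1 edgeR called 2 of the 30 (2.67% of all genes were called higher), Kcnh2 at 1.26 (adjusted p = 0.016) and the calcium pump regulator Pln at 0.86 (adjusted p = 0.043). The sarcomere genes Myl2 and Tnni3 had log2 fold changes of 0.59 and 0.61 (adjusted p = 0.221 and 0.224 in edgeR). Nppb, a natriuretic peptide gene that GATA4 is known to switch on, was lower, at 1009, 1229 and 809 CPM in TG against 1230.2, 1559 and 1509 CPM in NTG (log2 fold change -0.50, adjusted p = 0.227 in edgeR).

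The other natriuretic peptide gene, Nppa, was at 754, 1394 and 1400.5 CPM in NTG and at 172, 867 and 268 CPM in TG. TG 2 lay above NTG 1, and the log2 fold change of -1.44 (SE 0.61) had adjusted p = 0.275 in edgeR and ran from -2.43 without TG 2 to -1.06 without TG 1. Myh6, the adult myosin heavy chain, and Myh7, the fetal one, had log2 fold changes of 0.56 and -0.89, with adjusted p of 0.323 and 0.501 in edgeR. With 1 library left out, Myh6 ran from 0.31 without NTG 2 to 0.81 without NTG 1, and Myh7 from -1.90 without TG 2 to -0.51 without TG 3. Both actin genes of striated muscle overlapped between the groups as well, with Acta1 at -0.13 and Actc1 at 0.34. Acta1 turned to 0.092 without TG 3, and Actc1 was 0.19 without NTG 2 and 0.52 without NTG 1. The other genes under the unadjusted threshold, named after their values were seen, were Ckm (0.58), Des (-0.51) and Slc8a1 (-0.24).

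SRF targets known as immediate early or smooth muscle genes were listed as 18 genes, and all were tested. At an unadjusted p under 0.05, 6 were higher in TG (33.3%, against 8.83% of all genes) and 0 were lower. The median log2 fold change was 0.020, with 0 called by edgeR. The 6 became 3 without NTG 3 or TG 1 (against 5.15% and 4.98% of all genes), 4 without NTG 2 (against 5.08%) and 5 without TG 2 (against 9.08%). At that threshold 2 genes were lower without TG 2 and 1 without NTG 1. All 6 are known from smooth muscle. Acta2, smooth muscle actin, was at 88.5, 83.5 and 88.6 CPM in NTG and at 120.0, 113.5 and 114.6 CPM in TG (log2 fold change 0.42, SE 0.083, adjusted p = 0.196 in edgeR). Myh11, Cnn1 and Smtn had log2 fold changes of 0.70, 0.75 and 0.43, with no overlap between the groups in any of them. DESeq2 called Myh11 (adjusted p = 0.018) and Cnn1 (adjusted p = 0.047). The remaining genes of the 6 were Actg2 (0.95) and Tpm2 (0.48), named after their values were seen. The immediate early genes on the list, Fos, Fosb, Egr1, Egr2, Junb and Ier2, had log2 fold changes from -0.80 to 0.34, and none was under the unadjusted threshold. Egr1 and Fosb changed sign when 1 library was left out. Since 4 of the genes also stand on the smooth muscle and pericyte marker list (Acta2, Myh11, Cnn1 and Tagln, the last at a log2 fold change of -0.61), SRF targets and that cell type cannot be told apart by them.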

How the data were processed

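Poly-A selected RNA-seq libraries from the left ventricles of 3 TG and 3 NTG mice were analysed, grouped by their sample titles. The authors counted reads per gene with featureCounts after mapping and deposited raw counts, without normalization or pooling. The submitters' notes name HISAT2, DESeq2 and the build GRCh38, which is human, whereas the gene identifiers and positions in the table are those of mouse GRCm38: 53585 of 54532 rows, and 8 of the 10 members, have the same coordinates in GENCODE M21. Per the study's methods, StringTie served to predict new transcripts, and DESeq2 with Benjamini and Hochberg adjustment was the authors' test. The strand setting and the handling of reads with several matches are not given in the sources used here.

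The comparison used edgeR 4.0.16 in R 4.3.3 (TMM scaling, filterByExpr by group, robust quasi-likelihood test), and p-values of the 14774 genes tested were adjusted after Benjamini and Hochberg. Calls needed an adjusted p under 0.05 together with a log2 difference beyond 0.5 either way. SE and 95% intervals come from that fit, and log2 CPM has a prior count of 2. DESeq2 1.42.0 and limma 3.58.1 (voom) were alternatives, among 16 in all, and 2 more were added after the values were seen. The scripts were checked on simulated data first. Ratios were tested by two-sided exact permutation in scipy 1.17.1. The sources give no litters or batches, so p-values measure only the spread between these samples, which may in part be technical.

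The members and gene lists were chosen with earlier results of these data known. Named genes were the 10 members, Hint2, the 4 lowest-p genes of each list, 6 further muscle and natriuretic peptide genes, genes within 5000 bases of a member, and the 2 nearest profiles of the 3 most variable members. Any other gene is marked in the text as named after its values were seen or given with its family or marker list. Total counts of 14863568 to 17581220 per library left counting errors of 1.81% to 9.16% for the members.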

Additional observations from a re-analysis of the deposited data

How the results depend on the processing

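The 6 members at an unadjusted p under 0.05 in edgeR were 1 (Hand2) with library size alone, where the log2 fold change of Gata4 became -0.032, and 5 with DESeq2 or with no low-count filter. Genes called over the whole table were 0 in edgeR and 232 without the filter, 562 with DESeq2 and 231 with the replicate block, none of them a member. Replicate numbers did not pair the hearts, with correlations of 0.081, 0.173 and -0.252 for numbers 1, 2 and 3, and under the block Hand2 had an adjusted p of 0.066 in edgeR.

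With 1 library left out in turn, genes called ranged from 0 to 836, members called from 0 to 1, genes at an unadjusted p under 0.05 from 1567 to 4081, members at that threshold from 0 to 5, and the members' median log2 fold change from 0.21 to 0.36. Members whose log2 fold change changed sign were Gata4 without NTG 2 (-0.061), Tbx5 without TG 3 (-0.093), Tbx20 without TG 3 (0.061) or NTG 1 (0.14), and Mef2c without TG 3 (0.053) or NTG 1 (0.016). DESeq2 without NTG 1, chosen after seeing the data, called 1756 genes and 1 member (Hand2, 1.199) and gave 0.15 for Tbx20 and 0.024 for Mef2c. In that DESeq2 fit Mef2a (0.41, adjusted p = 0.0172) and Gata6 (0.37, adjusted p = 0.0435) passed the threshold on adjusted p but not the one on fold change. Tbx20 reached -0.20 and Mef2c -0.16 without TG 2. The cause of these shifts was not tested. With 3 hearts a group, single-gene exact tests cannot fall below 0.1.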

Other observations

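Genes of the pacemaker and conduction system, among them Tbx3, were examined as a list of 6. Of these, 5 were tested, and at an unadjusted p under 0.05 in edgeR 2 were higher in TG (Tbx3 and Hcn4) and 1 was lower (Shox2), against 8.83% and 9.76% of all genes. None was lower at that threshold without NTG 1, NTG 2 or TG 1. In each fit without 1 library other than NTG 1, 1 was higher, against 4.98% to 9.08% of all genes. Hcn4, the pacemaker channel gene, was at 4.57, 0.690 and 1.504 CPM in NTG and at 7.93, 4.43 and 5.99 CPM in TG, with NTG 1 just above TG 2 (log2 fold change 1.46, adjusted p = 0.266 in edgeR, and 2.48 with adjusted p = 0.024 without NTG 1). Shox2, a factor of the sinus node, was at 3.21, 3.35 and 2.14 CPM in NTG and at 1.08, 1.88 and 1.67 CPM in TG (log2 fold change -0.90, adjusted p = 0.217 in edgeR). Cacna1g and Cntn2 overlapped between the groups, with log2 fold changes of -0.20 and 0.63 (-0.12 for Cntn2 without TG 3), and Isl1 had no counts in any library.

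Next to Tbx5, the noncoding RNA Gm43050 starts 748 bases away on the opposite strand without sharing exons. It was at 1.64, 0.690 and 0.579 CPM in NTG and at 1.95, 1.82 and 2.28 CPM in TG, with no overlap, from 10 to 37 counts a library (log2 fold change 1.08, adjusted p = 0.232 in edgeR, and 1.65 with adjusted p = 0.047 without NTG 1). Tbx5 itself had a log2 fold change of 0.088.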
